A study of Mus musculus with 2 samples.

Results

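Lysosome genes were examined in PK44 cells of the mouse yolk sac. They were chosen by symbol alone, as the rows for cathepsins (Cts and 1 letter), subunits of the vacuolar proton pump (symbols starting with Atp6v) and its accessory proteins *Atp6ap1* and *Atp6ap2*, the membrane proteins *Lamp1* and *Lamp2*, the protease legumain (*Lgmn*), prosaposin (*Psap*) and glycosidases such as *Hexa*. This gave 49 of 23154 rows, of which 35 had a count in at least 1 cell. PK44 cells are sorted as CD41-CD43-CD45-CD31+CD201+Kit+CD44+ and were described by the study as hemogenic endothelium, the endothelium from which blood cells emerge. Both libraries came from E10.0 embryos with no treatment or other condition, and the labels state neither a genotype nor how many embryos were pooled. Replicate 1 had 43 cells and replicate 2 had 44 cells, with no cell name in common.

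The lysosome is the acidic compartment in which cells break down what they take up or recycle. The vacuolar ATPase (V-ATPase) pumps protons into it, through a cytosolic V1 sector that splits ATP and a membrane V0 sector that carries the protons. Acidity activates the hydrolases, among them the cathepsins, while heavily glycosylated LAMP proteins line the membrane. Yolk sac endothelium is known for scavenger receptors such as *Lyve1* (hyaluronan receptor) and *Stab2* (stabilin-2), whose cargo ends in lysosomes, and *Runx1* is the transcription factor needed for blood cells to arise from endothelium.

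Replicate 1 had 8932527 counts, with 13218 to 702028 per cell, and replicate 2 had 12706360, with 51620 to 956593 per cell. The 5 endothelial markers *Pecam1*, *Cdh5*, *Kdr*, *Tek* and *Tie1* summed to 1648 and 2479 CPM (counts scaled to a common library total) in replicates 1 and 2. Of 14 macrophage markers 6 had no count (*C1qa*, *C1qb*, *C1qc*, *Cx3cr1*, *Adgre1* and *Aif1*), while the list summed to 303 and 346 CPM, with *Mrc1* highest at 125 and 162 CPM and *Fcer1g* at 65.6 and 127 CPM. Summed levels were 83.4 and 8.97 CPM for 4 granulocyte markers, 0.0 and 16.4 CPM for 9 visceral endoderm markers, 830.3 and 329.7 CPM for 5 mesenchymal markers and 10.2 and 18.7 CPM for 5 erythroid markers. In replicate 1, 2 cells and in replicate 2, 1 cell had at least 100 counts of each of *Col1a1*, *Col1a2*, *Col3a1* and *Lum*, and results resting on them were also computed without them.

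Lysosome genes took 0.235% of all counts in replicate 1 and 0.318% in replicate 2. Single cells ranged from 0.0975% to 0.521% with a median of 0.229% in replicate 1, and from 0.160% to 0.952% with a median of 0.296% in replicate 2. A cell had counts of 17 of these genes in the median in replicate 1 and of 24 in replicate 2, which became 10 and 16 when every cell was thinned to 20000 counts. By role, the 18 cathepsin rows held 30.5% and 31.6% of the lysosome counts in replicates 1 and 2, the 13 V1 rows 26.1% and 29.1%, and the 10 V0 rows 19.3% and 15.8%. The membrane proteins held 10.5% and 9.81%.

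The highest levels were spread over all of these roles. *Lamp1*, the main glycoprotein of the lysosomal membrane, had 201 CPM in replicate 1 and 223 in replicate 2 (212 ± 15.8, SD over 2 libraries) and was counted in 39 of 43 and 43 of 44 cells. *Ctsl*, a cysteine protease, had 166 and 255 CPM (210.5 ± 63.5), and *Ctsd*, an aspartic protease, had 156 and 255 CPM (206 ± 70.2). *Ctsd* was counted in 86 of the 87 cells, namely 98.9% (exact 95% interval 93.8% to 99.97%). The order among these leading genes was not separated by the spread between libraries.

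Among the pump genes, *Atp6v1f*, a stalk subunit of V1, had 142 and 253 CPM (197 ± 78.5). *Atp6v0b*, a proton-carrying subunit of the V0 ring, had 178 and 151 CPM (164 ± 19.6), and *Atp6v0e*, a small V0 subunit, had 135 and 145 CPM (140.1 ± 7.15). *Atp6v1g1*, another V1 stalk subunit, had 101 and 167 CPM (134 ± 47.1) and went from 24 of 43 to 42 of 44 cells. Their order changed from one library to the other, with *Atp6v0b* first of these in replicate 1 and *Atp6v1f* in replicate 2.

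*Hexa*, which removes hexosamine from gangliosides, had 96.3 and 141 CPM (118 ± 31.3). The cysteine protease *Ctsb* had 92.6 and 141 CPM (117 ± 34.0), and *Ctsa*, a carboxypeptidase that protects other hydrolases, had 105 and 102 CPM (104 ± 2.04). These 10 genes were the ones with a mean of at least 100 CPM. In replicate 1 the 3 highest cells held 67.6% of all *Ctsa* counts, although its level was nearly the same in both libraries.

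The other 20 members counted in at least 14 cells had mean levels from 4.52 CPM (*Ctsf*) to 98.0 CPM (*Atp6v1e1*). Among them were the ATP-splitting V1 subunits, with *Atp6v1a* at 107 and 77.0 CPM and *Atp6v1b2* at 45.5 and 107 CPM. *Atp6ap2*, the prorenin receptor and an accessory protein of the pump, had 13.3 and 65.3 CPM, the widest gap between libraries among members counted in over 40 cells, and 84.0% of its counts in replicate 1 came from 3 cells. *Lgmn* likewise had 29.4 and 69.6 CPM, with 84.8% of its counts in replicate 1 from 3 cells. Since counts came from the 3′ ends of transcripts, CPM were compared between genes without dividing by transcript length.

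**Figure D1:**
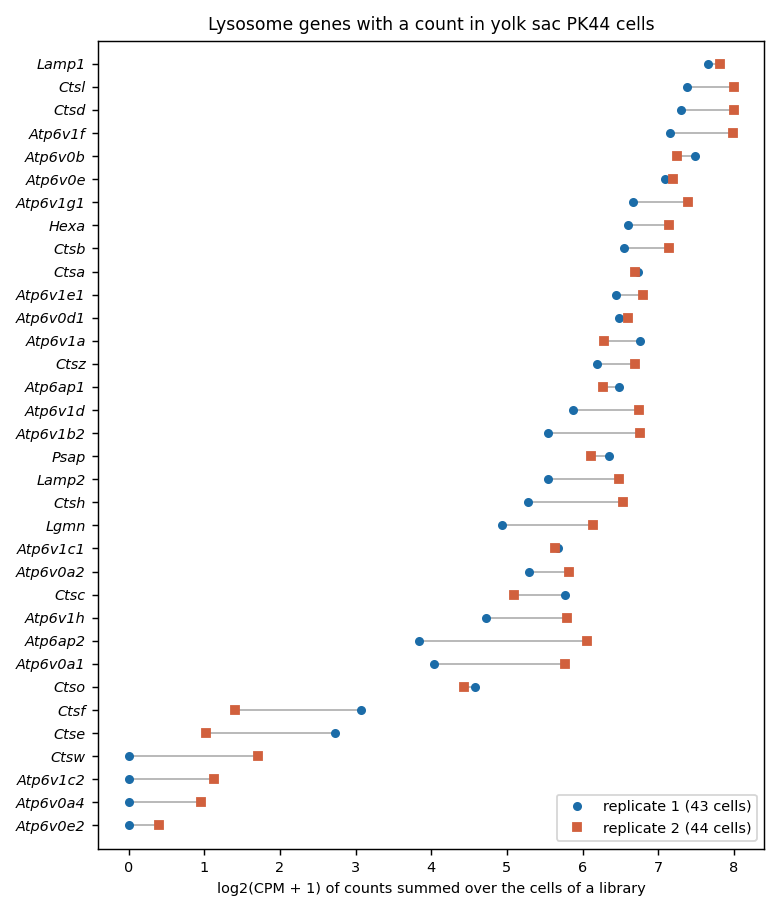
Levels of lysosome genes with a count, as log2(CPM + 1) of counts summed over the cells of a library, with 1 circle for replicate 1 (43 cells) and 1 square for replicate 2 (44 cells). *Lamp1*, *Ctsl* and *Ctsd* sit at the top, and 4 genes at the bottom were counted in replicate 2 only, each in 1 cell.

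Replicate 2 had the higher levels for most of these genes. Of the 19 members with a count in at least 50% of the cells of each library, 14 were higher in replicate 2, with a median log2 ratio of replicate 2 over replicate 1 of 0.50. Over all 3661 genes that met the same condition, 45.9% were higher and the median was -0.06. With 1 library on each side this difference has no replicate check.

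Counts of pump transcripts came wholly or almost wholly from 1 isoform per family, except for subunit a. The assembled pump was not measured. Of 16 isoform rows in 7 families, 5 had no count and 3 were counted in 1 cell each. *Atp6v1b2*, *Atp6v0d1*, *Atp6v1e1* and *Atp6v1g1* took 100% of the counts of families B, d, E and G in both libraries, leaving *Atp6v1b1*, *Atp6v0d2*, *Atp6v1e2*, *Atp6v1g2* and *Atp6v1g3*, which other tissues such as kidney, bone, testis or brain are known to use, with none. *Atp6v1c1* took 100% and 97.6% of family C, and *Atp6v0e* took 100% and 99.8% of family e.

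Subunit a anchors the pump to a given membrane. The symbol rule covered *Atp6v0a1*, *Atp6v0a2* and *Atp6v0a4*, and forms of this subunit under other symbols were not examined. Of the counts of these rows *Atp6v0a2* took 71.1% in replicate 1 and 50.5% in replicate 2, and *Atp6v0a1* took 28.9% and 48.7%. In replicate 1 the 3 highest cells held 81.2% of *Atp6v0a2* and 96.4% of *Atp6v0a1* counts. Of the 87 cells, 23 had counts of both *Atp6v0a1* and *Atp6v0a2*, 20 of *Atp6v0a2* only, 8 of *Atp6v0a1* only and 36 of neither. The kidney form *Atp6v0a4* had 12 counts, all in 1 cell. Of the 8 V1 subunits that were counted (A, B2, C1, D, E1, F, G1 and H) a cell had 5 in the median in replicate 1 and 7 in replicate 2, and all of them in 2 and 15 cells. After thinning the medians were 2 and 5, and no cell had all of them.

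In all, 14 rows had no count in any of the 87 cells, so up to 3.45% of such cells could still have a count. Among them were 7 of the 18 cathepsin rows, namely *Ctsg*, a granule protease of neutrophils, *Ctsk* of osteoclasts, *Ctss* of antigen-presenting cells, and *Ctsj*, *Ctsm*, *Ctsq* and *Ctsr*, a placental cluster on chromosome 13. *Ctse* was counted in 5 cells and *Ctsw*, of lymphocytes, in 1. The other 7 were V-ATPase rows, the isoforms above plus *Atp6v0c* and its pseudogene *Atp6v0c-ps2*. *Atp6v0c* encodes the main subunit of the proton-carrying ring, and its V0 partners *Atp6v0b* and *Atp6v0e* were among the highest members. Of the 50-base words in the last 500 bases of transcripts, the pseudogene shared 90.1% with other genes, chiefly *Atp6v0c*, while the end of *Atp6v0c* shared 0.0%, and the absence of *Atp6v0c* counts was not traced further. *Atp6v1f* shared 21.1%, *Ctsc* 5.76% and *Ctsa* 2.88% of such words with other genes, so their counting may be affected by other genes. How many counts this touches was not tested.

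Lysosomal genes outside the symbol rule were also counted. Of 62 such genes, 61 had a count. *Cst3*, the cathepsin inhibitor cystatin C, was counted in all 87 cells at 388 and 371 CPM, above every member. *Cd63*, a membrane protein of late endosomes, had 232 and 313 CPM, and *Npc2*, a carrier of cholesterol out of lysosomes, had 212 and 188 CPM. *Igf2r* and *M6pr*, receptors that bring hydrolases to the lysosome, had 131 and 130 CPM, and 79.3 and 99.5 CPM. The family of transcription factors that drives lysosome genes was sparse, with *Tfe3* at 3.36 and 25.4 CPM, *Tfec* at 4.03 and 15.03 CPM, *Mitf* with 18 counts in 7 cells and *Tfeb* with no count.

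These factors are known to bind TCACGTGA, a longer form of the E-box CACGTG. Promoters from 250 bases before to 50 after the start (RefSeq, GRCm38.p6) were matched for 37 of the 49 members. TCACGTGA was present in 5 (13.5%), against 1.12% of 27025 promoters of all genes, and CACGTG in 10 (27.0%) against 8.09%. Both motifs read the same on either strand, and each TCACGTGA holds a CACGTG. All 5 and all 10 genes were among the 22 matched members counted in at least 14 cells, and none of the other 15 had a match. Genes at large were not divided at this cell limit, so whether this is particular to lysosome genes was not tested. This search, its cell limit and the promoters shown were chosen after the levels had been seen. A match is a run of letters, not evidence of binding.

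The stretches below, taken from before the start, show the full motif in the carboxypeptidase *Ctsa*, the protease *Ctsd* and the catalytic V1 subunit, and repeated E-boxes in a V0 subunit and *Lamp1*, with capitals marking CACGTG or TCACGTGA. They are chr2:164833730-164833772 (plus strand), chr7:142387889-142388077 (minus), chr16:44139354-44139421 (minus), chr4:117887330-117887396 (minus) and chr8:13159069-13159160 (plus) in turn.
Ctsa: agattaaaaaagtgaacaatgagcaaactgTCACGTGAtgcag
Ctsd: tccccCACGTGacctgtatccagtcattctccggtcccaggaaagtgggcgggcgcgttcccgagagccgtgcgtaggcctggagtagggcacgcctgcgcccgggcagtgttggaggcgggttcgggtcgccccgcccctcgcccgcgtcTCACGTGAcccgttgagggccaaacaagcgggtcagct
Atp6v1a: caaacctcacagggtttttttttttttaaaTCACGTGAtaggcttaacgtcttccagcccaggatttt
Atp6v0b: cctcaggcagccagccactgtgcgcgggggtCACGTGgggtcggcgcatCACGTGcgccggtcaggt
Lamp1: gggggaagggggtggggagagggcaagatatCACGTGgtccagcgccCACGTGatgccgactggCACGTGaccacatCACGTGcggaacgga
The *Lamp1* stretch held 4 E-boxes, and the *Ctsd* and *Atp6v0b* stretches held 2 each.

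Coordination between lysosome genes over cells was weak and close to that of genes at large. For the 19 members counted in at least 50% of the cells of each library, the median Spearman rho over 171 pairs was 0.092 in replicate 1 and 0.038 in replicate 2, against 0.077 and 0.029 over all 3661 such genes. The pairs above 0 in both libraries numbered 77, or 45.0%, against 39.5% of all pairs, and 0 reached 0.3 in both libraries, against 0.593% of all pairs. All cells of a library share depth and preparation, and no p was computed. After thinning, the medians were 0.036 and 0.038.

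The 5 pairs with the highest smaller rho of the libraries mixed pump and hydrolase genes. They were *Atp6v1g1* with *Ctsb* (0.25 and 0.36), *Atp6v1d* with *Ctsb* (0.25 and 0.26), *Atp6ap1* with *Ctsh* (0.28 and 0.24), *Ctsh* with *Ctsz* (0.24 and 0.26) and *Atp6v0b* with *Atp6v1f* (0.22 and 0.31). In replicate 1, thinning turned the sign for *Atp6v1d* with *Ctsb* (-0.15) and for *Atp6ap1* with *Ctsh* (-0.20). Such weak values in sparse counts describe these cells and no more.

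**Figure D2:**
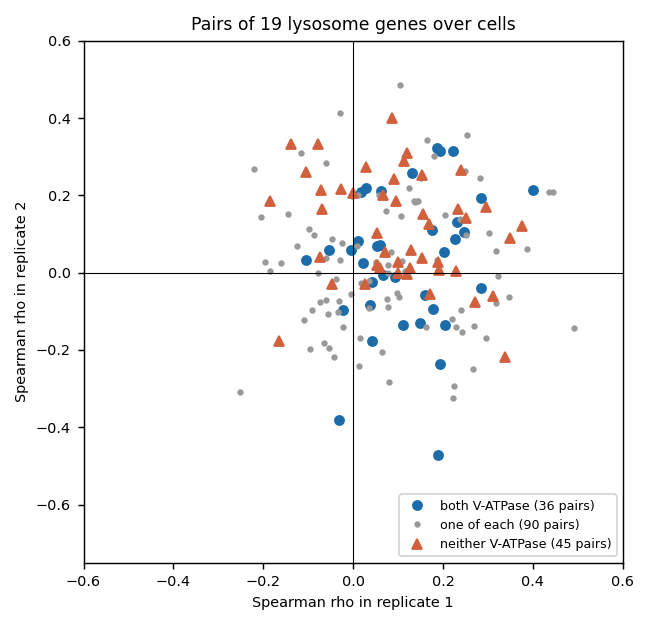
Spearman rho of each of the 171 pairs of 19 lysosome genes over cells, in replicate 1 (horizontal axis) and replicate 2 (vertical axis), by whether both, 1 or neither gene encodes a V-ATPase protein. The points scatter around a little above 0 in both libraries, with medians of 0.092 and 0.038, and none lies at or above 0.3 on both axes.

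To relate the lysosome genes to *Runx1*, *Lyve1* and *Stab2*, cells of each library were divided at the library median of that gene's CPM into high and low cells, and counts were summed per library and side, giving 4 sums a gene. Levels below are CPM of these sums after TMM scaling, and high and low cells are ranges of one population, not cell types. Of the lysosome genes, 30 passed the filter on low counts in each division. In the quasi-likelihood test of edgeR, adjusted by Benjamini-Hochberg over all genes tested, none of the 30 passed 0.05 in any of the 3 divisions. Over all genes, edgeR called 0.00941% for *Runx1*, 0.0% for *Lyve1* and 0.0% for *Stab2*, and with the library as a term 1.56%, 0.103% and 0.122%, where again 0 members were called. DESeq2 called 0 members as well, against 1.26%, 0.349% and 0.0733% of all genes. Unadjusted p fell under 0.05 for 2 members in the *Runx1* division, 1 in the *Lyve1* division and 0 in the *Stab2* division with edgeR, against 5.53%, 3.51% and 1.9% of all genes, and for 2, 1 and 1 with DESeq2, against 9.0%, 5.87% and 4.03%. Without the library as a term, these shares of members are near or under those of all genes. With it, unadjusted p of edgeR fell under 0.05 for 4 of 30 members in the *Runx1* division, against 921 of 10629 genes. The *Lyve1* division had 3 of 30, against 641 of 10688, and both shares of members are above those of all genes. The *Stab2* division had 1 of 30, against 346 of 10630. Simulated sums were as variable as those of the *Runx1* division, the only one tried, and held no difference between libraries. On them edgeR made no call on known changes larger than every fold change of a member fitted over both libraries below. DESeq2 was not tried on them. The lack of calls thus does not show that levels were alike.

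**Figure D3:**
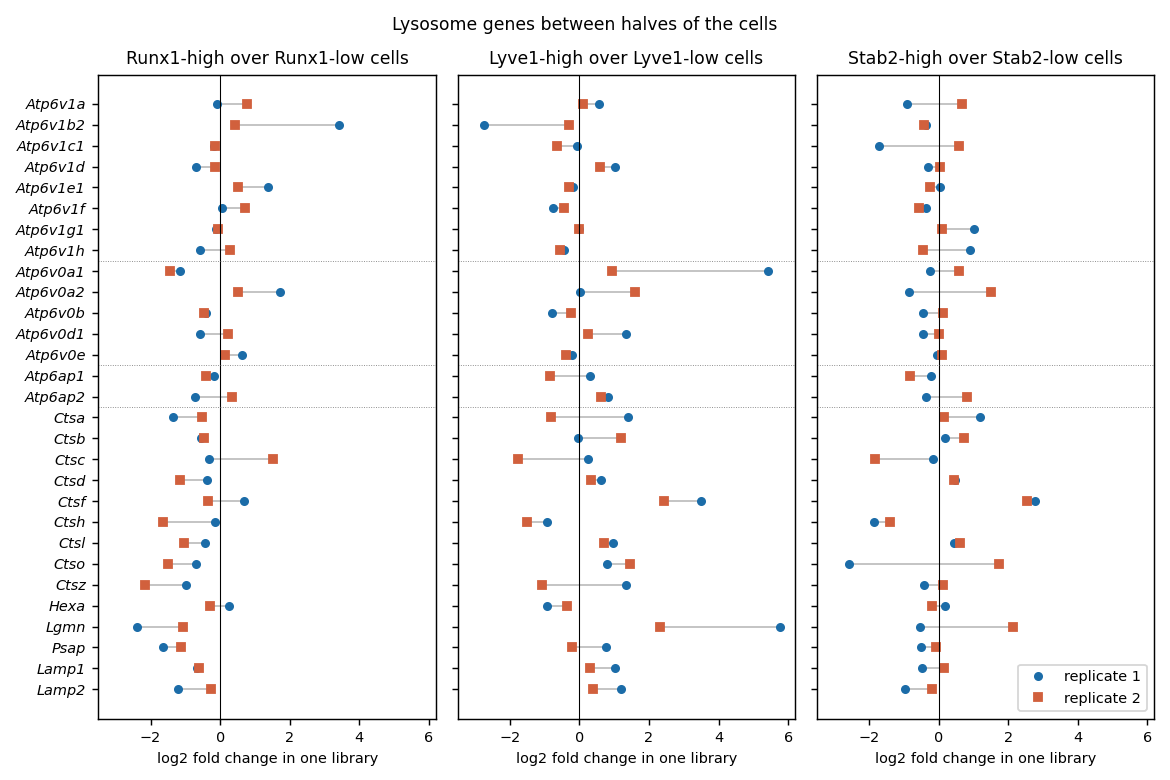
Log2 fold change of tested lysosome genes between high and low cells for *Runx1*, *Lyve1* and *Stab2*, with a circle for replicate 1 and a square for replicate 2 and dotted lines between V1, V0, accessory and other genes. Below the lowest line in the *Runx1* panel most points lie left of 0 in both libraries, while the V-ATPase genes above lie on either side. No gene passed the test.

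In the *Runx1* division, lysosome genes were lower in the *Runx1*-high cells of both libraries in 18 of 30 cases and higher in both in 5, against 26.5% and 28.8% of all genes. The median log2 fold change was -0.32, against -0.01 over all genes. Of the 13 hydrolase genes tested, *Psap* included, 10 were lower and 0 higher in both libraries, with a median of -0.96, while of 15 V-ATPase genes 6 were lower and 5 higher, with a median of -0.01. This grouping was chosen after values had been seen, and the difference between the groups was not tested.

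*Ctsz*, a carboxypeptidase, had 54.6 CPM in *Runx1*-high and 107 in *Runx1*-low cells of replicate 1, and 41.8 and 190 in replicate 2 (log2 fold change -1.63, SE 0.57, edgeR adjusted p = 0.80). *Psap*, the precursor of the saposins that help break down sphingolipids, had 47.0 and 147 CPM in replicate 1 and 45.4 and 100.3 in replicate 2 (-1.42, SE 0.57, edgeR adjusted p = 0.88). Without the 3 collagen-rich cells the *Psap* value was -0.85. In single cells of replicate 2, *Ctsz* ran from 0.0 to 199 CPM with a median of 7.53 in high cells, and from 0.0 to 1060.2 with a median of 83.7 in low cells, so the ranges overlapped.

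*Lgmn*, which matures several cathepsins, had 11.96 and 63.7 CPM in high and low cells of replicate 1 and 47.8 and 100.1 in replicate 2 (-1.45, SE 0.82). *Atp6v0a1* had 10.9 and 24.6 CPM, then 31.2 and 85.5 (-1.39, SE 0.98), and the aminopeptidase *Ctsh* had 36.7 and 41.0 CPM, then 48.6 and 153 (-1.19, SE 0.74). Of these 5, which had the smallest fold changes among members of the same sign in both libraries, *Atp6v0a1* was the only pump gene. In replicate 1, 96.4% of *Atp6v0a1* counts came from 3 cells. The *Ctsh* value was -0.16 in replicate 1 alone, that of *Ctsz* -0.97 and that of *Lgmn* -2.38.

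Among members of the same sign in both libraries, the 5 with the largest fold changes were pump genes. *Ctsf*, at 0.49, lay between them but differed in sign between libraries. *Atp6v1b2* had 67.2 and 5.91 CPM in high and low cells of replicate 1 and 118 and 87.1 in replicate 2 (0.99, SE 1.00), or 3.43 in replicate 1 and 0.44 in replicate 2 alone. *Atp6v0a2* had 50.9 and 15.1 CPM, then 62.6 and 43.4 (0.95, SE 0.84, and 1.73 in replicate 1 alone), and *Atp6v1e1* had 110.2 and 42.0 CPM, then 124 and 86.5 (0.86, SE 0.58). *Atp6v1f* (0.47, SE 0.49) and *Atp6v0e* (0.37, SE 0.47) followed, and for both the sign turned after thinning (-0.04 and -0.10). None of these 5 passed the test.

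**Figure D4:**
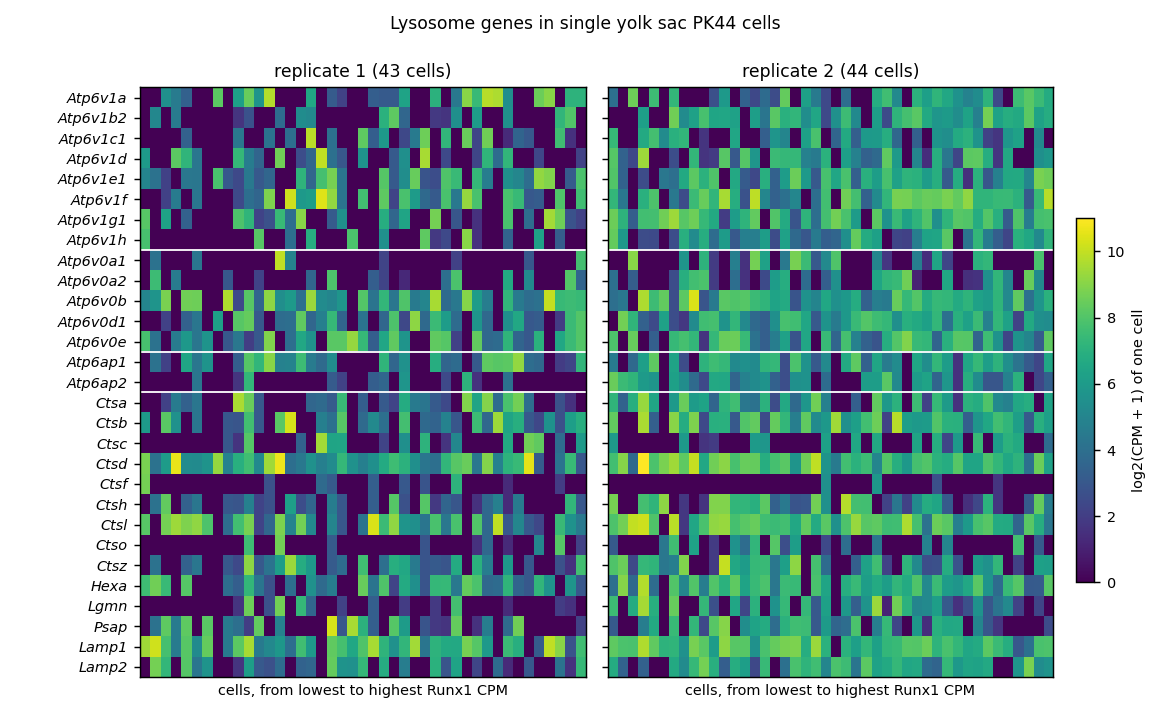
Log2(CPM + 1) of lysosome genes counted in at least 14 cells, in each of the 43 and 44 cells, ordered from lowest to highest *Runx1* CPM within a library. White lines part V1, V0, accessory and other genes. Dark cells, with no count, are more frequent in replicate 1, whose cells were shallower.

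Summed over the rows of a group in each cell, hydrolases and *Psap* had a negative Spearman rho with *Runx1* in both libraries, of -0.19 over 43 cells and -0.59 over 44, and of -0.22 and -0.57 after thinning. The V-ATPase rows gave 0.39 and -0.01. Summed hydrolase CPM of replicate 2 ran from 388 to 2233 with a median of 987 in *Runx1*-high cells and from 721 to 6537 with a median of 1384 in *Runx1*-low cells, and in replicate 1 the medians were 800.1 and 835. The value of -0.59 was the largest in size of 18 such correlations computed for 3 groups, 3 genes and 2 libraries after values had been seen.

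Other quantities moved with *Runx1* too. Its rho with depth was 0.34 in replicate 1 and 0.35 in replicate 2. That of the hydrolase sum with depth was -0.10 and -0.39, and that of the V-ATPase sum 0.11 and 0.29. All 5 endothelial markers were lower in *Runx1*-high cells of both libraries, with sums of 1130 and 2590 CPM in high and low cells of replicate 1 and 1892 and 3354 in replicate 2. The mesenchymal markers summed to 48.4 and 2250 CPM, then 23.3 and 786, since all 3 collagen-rich cells were *Runx1*-low. Without these cells the rho values were -0.22 and -0.59, as large as with them. Granulocyte markers summed to 127 and 4.41 CPM in high and low cells of replicate 1 and 14.9 and 0.196 in replicate 2, and erythroid markers to 15.6 and 0.315, then 27.0 and 6.47. Macrophage markers summed to 243 and 410.4 CPM, then 412 and 247. Of the 14, 4 were higher and 1 lower in *Runx1*-high cells of both libraries, and 6 were at 0. The part of these markers and of depth in the result was not tested. Of the lysosomal genes outside the rule, *Npc2*, named after its values were seen, was called in the *Runx1* division with the library as a term (log2 fold change without it -1.46, edgeR adjusted p = 0.78, and 0.034 with it). It was 1 of 57 such genes tested, DESeq2 called 0 of them, and the share of all genes called with that term is the 1.56% given above.

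**Figure D5:**
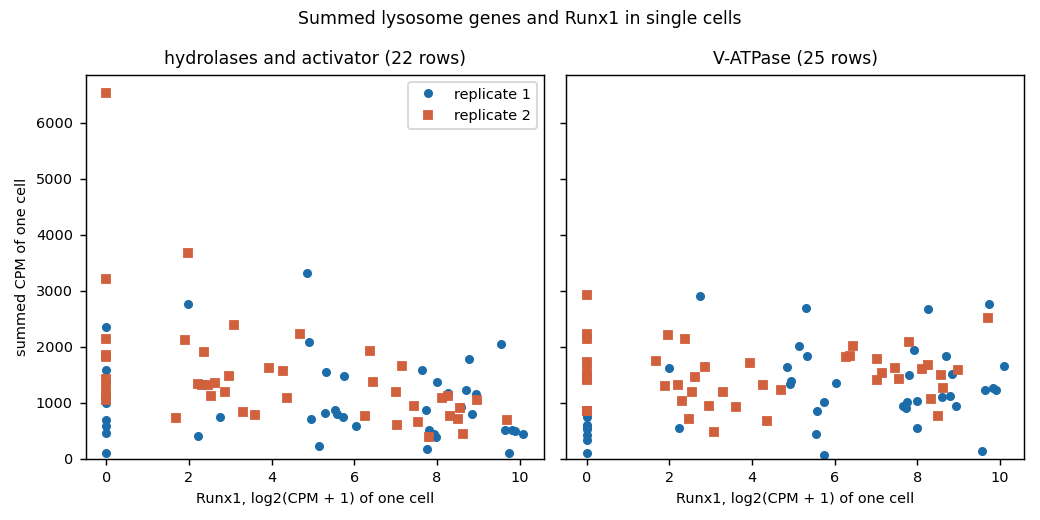
Summed CPM of 22 hydrolase and activator rows (left) and 25 V-ATPase rows (right) in single cells against *Runx1* as log2(CPM + 1), with circles for replicate 1 and squares for replicate 2. In the left panel the highest sum, 6537 CPM, belongs to a cell of replicate 2 with no *Runx1* count, and the points of replicate 2 slope down with *Runx1* (rho -0.59), against -0.01 on the right.

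In the *Lyve1* division the median log2 fold change was 0.37, against 0.01 over all genes, but 0.46 in replicate 1 and 0.04 in replicate 2. In both libraries 14 members were higher and 10 lower in *Lyve1*-high cells, against 25.6% and 27.6% of all genes. *Lgmn* had 85.1 and 1.20 CPM in high and low cells of replicate 1 and 121 and 23.9 in replicate 2 (3.03, SE 1.09, edgeR adjusted p = 1.00). For *Lgmn* edgeR gave an adjusted p of 0.19 with the library as a term. Its counts in replicate 1 lay in few cells, as given above, and its value was 1.78 after thinning, 5.76 in replicate 1 and 2.32 in replicate 2. Of the members of the same sign in both libraries, *Ctsf* was above it (3.72, SE 2.56, with 87 counts in all, and 2.44 in replicate 2 alone). *Atp6v0a1* (1.62, SE 1.30), *Ctso* (1.09, SE 1.13) and *Atp6v0a2* (0.90, SE 0.76) were below it. The value of *Atp6v0a1* was 5.41 in replicate 1, where 3 cells held 96.4% of its counts, and 0.94 in replicate 2. That of *Atp6v0a2* was 0.02 and 1.58, and *Ctso* had 1.72 after thinning.

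At the other end *Ctsh* had 23.9 and 45.6 CPM in *Lyve1*-high and *Lyve1*-low cells of replicate 1 and 45.0 and 130 in replicate 2 (-1.34, SE 0.74). *Atp6v1b2* (-0.80, with -2.76 in replicate 1 alone and -0.16 after thinning), *Hexa* (-0.57), *Atp6v1f* (-0.56) and *Atp6v1h* (-0.53) followed. Over cells, *Ctsl* had a rho of 0.27 and 0.31 with *Lyve1*, the highest of 19 members in both libraries. The lowest were *Hexa* at -0.48 in replicate 1 and *Ctsh* at -0.48 in replicate 2. The medians over the 19 members were -0.006 and -0.051, against -0.046 and -0.045 over all genes. In *Lyve1*-high and *Lyve1*-low cells endothelial markers summed to 2331 and 1284 CPM in replicate 1 and 2658 and 2327 in replicate 2, with 4 of 5 higher in both. Macrophage markers summed to 435 and 232 CPM, then 459.7 and 249, but of the 14 only 1 was higher in both libraries. Of the others 3 were lower in both and 6 were at 0. Granulocyte markers summed to 3.54 and 126, then 0.0 and 16.6, and mesenchymal markers to 973 and 754, then 684 and 28.0. The rho of *Lyve1* with depth was -0.27 and -0.22. The part of these in the result was not tested.

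In the *Stab2* division the median was -0.10, against 0.02 over all genes, and opposite in sign between libraries (-0.33 and 0.11). In both libraries 6 members were higher and 7 lower, against 24.4% and 24.3% of all genes. *Ctsl* had 189 and 139 CPM in *Stab2*-high and *Stab2*-low cells of replicate 1 and 313 and 205 in replicate 2 (0.54, SE 0.49), and *Ctsd* had 179 and 130 CPM, then 296 and 219 (0.45, SE 0.50). *Ctsf* (3.17, SE 2.86, and 2.53 in replicate 2 alone), *Ctsa* (0.65, SE 0.58) and *Ctsb* (0.50, SE 0.56) were the others with the largest fold changes among members of the same sign in both libraries. *Lgmn*, at 1.19, was -0.55 in replicate 1 and 2.13 in replicate 2. After thinning, *Ctsl* had 1.14 and *Ctsd* 1.29.

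*Ctsh* again had the lowest fold change, with 18.3 and 67.8 CPM in *Stab2*-high and *Stab2*-low cells of replicate 1 and 46.8 and 125 in replicate 2 (-1.57, SE 0.74). Of members of the same sign in both libraries it was followed by *Ctsc* (-0.71, with -1.85 in replicate 2 alone), *Atp6ap1* (-0.48), *Atp6v1f* (-0.48) and *Lamp2* (-0.48). Over cells, *Ctsl* had a rho of 0.35 and 0.40 with *Stab2*. It was the highest of 19 members in replicate 2, and *Atp6v1g1* was in replicate 1 (0.38). The lowest were *Atp6v1e1* at -0.19 in replicate 1 and *Atp6v1f* at -0.21 in replicate 2. The medians over members were 0.0094 and 0.0095, against 0.018 and -0.064 over all genes. The sum of hydrolases and *Psap* had 0.40 and 0.37, while V-ATPase rows gave -0.14 and 0.08. After thinning, the hydrolase sum gave 0.58 and 0.22. In *Stab2*-high and *Stab2*-low cells macrophage markers summed to 250.3 and 379 CPM in replicate 1 and 505 and 222 in replicate 2, and endothelial markers to 1516 and 1842, then 2783 and 2242. Of the 14 macrophage markers 0 were higher and 1 lower in both libraries, and of the 5 endothelial markers 1 was higher and 1 lower. Granulocyte markers summed to 129 and 17.6 CPM, then 0.0 and 16.0, and mesenchymal markers to 826 and 836, then 719 and 26.3. The rho of *Stab2* with depth was 0.17 in replicate 1 and -0.28 in replicate 2. The part of these markers and of depth in the *Stab2* result was not tested.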

How the data were processed

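Per the labels and the paper's methods, the authors split reads by cell barcode, aligned them to mm10 with HISAT2 2.1.0, ran HTSeq and collapsed reads of the same UMI. The deposited tables hold counts per gene and cell, not normalized. All 87 cells were kept and no doublet caller was run. Members, lists and collagen cells were chosen with earlier results of these data known.

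CPM were taken per cell or per library. Intervals of shares (Clopper-Pearson, 95%) and the floor of 3 counts cover counting error only. For rows with no count, the limit on the share of cells was 3 over the number of cells. Counts were summed per library and side of the library median (4 sums) and tested with edgeR 4.0.16 (filterByExpr, TMM, quasi-likelihood, Benjamini-Hochberg over all genes) in R 4.3.3, without the dividing gene. High and low cells were cut by a measured gene, and only 2 libraries gave replication, so p-values measure the spread between these sums. The number of a library pairs its 2 sums, since both come from it, and their deviations correlated at 0.17, 0.16 and 0.15 for *Runx1*, *Lyve1* and *Stab2* across 11329 genes. Alternatives were the library as a block, DESeq2 1.42.0, RLE, no filter, thinning to 20000 counts (1 cell left out), cells without collagen, and each library left out. The 5 members with the largest and smallest fold change of the same sign in both libraries were named, and all members with a mean of at least 100 CPM.

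The test was tried on simulated counts for the *Runx1* division, at 3 dispersions. The first was typed in. It was replaced by the common dispersion estimated from these sums, which is the one that matches them, and a low one was added after those outcomes were seen, to check that the script recovers changes. At the lower dispersions large changes were recovered. At the estimated one, changes larger than every fitted fold change printed for a member were missed, and only the largest size tried was recovered, in part and without the block alone. The simulated sums held no difference between libraries, so they do not mimic the fit with the block, and DESeq2 was not tried on them. Versions were Python 3.11.15 with pandas 2.3.3, scipy 1.17.1, numpy 2.4.6 and, for plots, matplotlib 3.10.9. Gene positions came from GENCODE M21. Counts, sums and medians over members include 1 gene that is not reported here by name and is left out of the plots of single genes.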

Additional observations from a re-analysis of the deposited data

How the results depend on the processing

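The count of members called stayed at 0 under the replicate block, DESeq2, RLE, no filter, thinning and removal of collagen-rich cells in each division, which says little, since edgeR also missed known changes larger than these. With the block 1 residual degree of freedom is left. The block moved the *Runx1* median from -0.32 to -0.36 and changed no call. The *Runx1* median was -0.27 without the low-count filter and -0.26 after thinning, and -0.39 to -0.33 with a library left out. The *Lyve1* median turned to -0.10 after thinning and ran from 0.037 to 0.46 with a library left out, and the *Stab2* median ran from -0.33 to 0.11. The median rho of members with *Runx1*, 0.014 as the mean of both libraries, was -0.036 after thinning, and that with *Stab2*, 0.0094, was -0.047 after thinning and 0.017 without collagen-rich cells. Over all genes the median with *Runx1* was 0.121 in replicate 1 and 0.112 in replicate 2, and 0.052 and 0.069 after thinning. Before thinning 7 and 11 of 19 members were below 0 with *Runx1*, against 24.9% and 29.7% of all genes. Of 238 values for named members 2 turned in sign, *Atp6v1f* (-0.039) and *Atp6v0e* (-0.10) in the *Runx1* division after thinning. The cause was not tested. The other 55 values of main results and 236 of named members kept direction and side of the threshold or moved less than the spread. The stricter limit of 90% of cells left 2 members, a single pair. Leaving out a library leaves 1 sum a side, so it gave values with no test. Grouping V-ATPase apart from hydrolases, the V1 count per cell, the motif search and the shared-word check were added after seeing the data.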
